A study of Mus musculus with 6 samples.

Results

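The proteasome is the protease complex that degrades most ubiquitin-tagged proteins in the cell. Its 20S core is built from an outer ring of alpha subunits (Psma genes), which gates entry, and an inner ring of beta subunits (Psmb genes), of which Psmb5, Psmb6 and Psmb7 encode the catalytic ones. The 19S cap adds a ring of ATPases (Psmc genes) that unfold substrates, and non-ATPase subunits (Psmd genes) that bind and deubiquitinate them. The Psme genes encode alternative activators of the core, Psmf1 an inhibitor, and the Psmg genes chaperones that assemble the core. Immune cells exposed to interferon can swap the catalytic subunits for the inducible Psmb8, Psmb9 and Psmb10, which favours the production of peptides for antigen presentation.

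The genes described here are the rows of the deposited count table whose symbol begins with Psma to Psmg and a number, without pseudogenes and without Psmb8, Psmb9 and Psmb10. There were 47 of them among 24956 gene rows: 8 Psma, 8 Psmb, 7 Psmc, 14 Psmd, 5 Psme, 1 Psmf and 4 Psmg genes. The symbol match also brought in Psmc3ip, a partner protein of meiotic recombination and no proteasome subunit, and Psme2b, a near copy of Psme2. Psmb11, the beta subunit of the thymus, had 1 count in isotype 2 and 0 in the other 5 libraries, and was not tested. Levels are given as CPM, the read counts scaled to each library's total after that total was adjusted by the library's TMM factor. They are not scaled to the plain read totals, so each level also depends on these factors. On this scale 3 counts were 0.0784 to 0.120 CPM. The other 46 passed the filter on low counts.

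RNA was sequenced in bulk from microglia, which are macrophages that live in the brain, after cell sorting. All mice were 3XTg-AD, a transgenic model of Alzheimer's disease, and were 7 months old. Doses of 25 µg of antibody were given at intervals of 4 days over 4 weeks. The antibody either was directed against NK1.1, a surface receptor that marks NK (natural killer) lymphocytes, or was an isotype control. Each treatment had 3 libraries, called isotype 1 to 3 and anti-NK1.1 1 to 3 below, and there was no wild-type group. The labels do not say whether a library came from 1 animal or a pool, so the p-values measure the spread between these libraries, which may be technical.

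The libraries held 26893620 to 36098252 gene counts. Summed over fixed marker lists, microglial genes were at 27306 to 35979 CPM, with none of 10 at 0, and neutrophil genes at 74318 to 101945 CPM in the isotype libraries and 32480, 33118 and 141658 CPM in anti-NK1.1 1 to 3; none of 11 was at 0. The neutrophil sum exceeded the microglial sum in every library but anti-NK1.1 2. The NK cell list was at 83.3 to 128 CPM against 38.3 to 73.2 CPM, with Klrb1c, which encodes NK1.1, Ncr1 and Eomes at 0 in at least 1 library. Oligodendrocyte genes summed to 291 to 399 CPM in isotype and 747 to 876 CPM in anti-NK1.1, with Mog at 0 in at least 1 library of 6, and neuronal genes to 38.3 to 143 CPM and 182 to 567 CPM. Proteasome genes are expressed in every cell type, and the part of these other cells in the values below was not tested. In bulk RNA, fewer cells of a type and less RNA per cell cannot be told apart. Levels also followed transcript length differently from library to library. The rank correlation across genes of a library's deviation with length was -0.0088, 0.041 and 0.33 in isotype 1 to 3 and -0.16, 0.26 and -0.31 in anti-NK1.1 1 to 3. Genes are not independent replicates, and these values describe the libraries only.

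No proteasome gene passed the test between treatments. With edgeR's quasi-likelihood test, adjusted over all 14520 tested genes, 0 of 46 were called at an adjusted p under 0.05, beside 0% of all genes, and the smallest adjusted p among them was 0.727. At an unadjusted p under 0.05 there were 2, Psmg2 and Psmg3, beside 6.54% of all genes. DESeq2, run on the same genes, called none of the 46 and 0.572% of all genes. The log2 change was above 0 for 35 and below 0 for 11, with a median of 0.10. Over all tested genes 50.9% were above 0 and the median was 0.01.

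The count above 0 depended on which libraries were in the fit. Isotype 3 held the lowest value of 25 of the 46 genes, while anti-NK1.1 1 and anti-NK1.1 3 held the highest of 15 and 16. When 1 library was left out, 22 (without isotype 3) to 39 (without isotype 1) of 46 were above 0. Without anti-NK1.1 1 and 3 together there were 19, while over all tested genes 7200 were above 0 and 7312 below. Isotype 3, anti-NK1.1 1 and anti-NK1.1 3 held the extreme values. A lower count without them is therefore largely built in, here and in the same fits below. With offsets for the length and GC trend of each library, 22 were above 0 and the median was -0.01. Over all 14520 tested genes 6866 were then above 0, with a median of -0.04. The median deviation of the 46 genes from their mean over the libraries was 0.07, 0.04 and -0.27 in isotype 1 to 3 and 0.14, -0.15 and 0.18 in anti-NK1.1 1 to 3, on the log2 scale. The libraries of the 2 treatments overlapped.

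**Figure D1:**
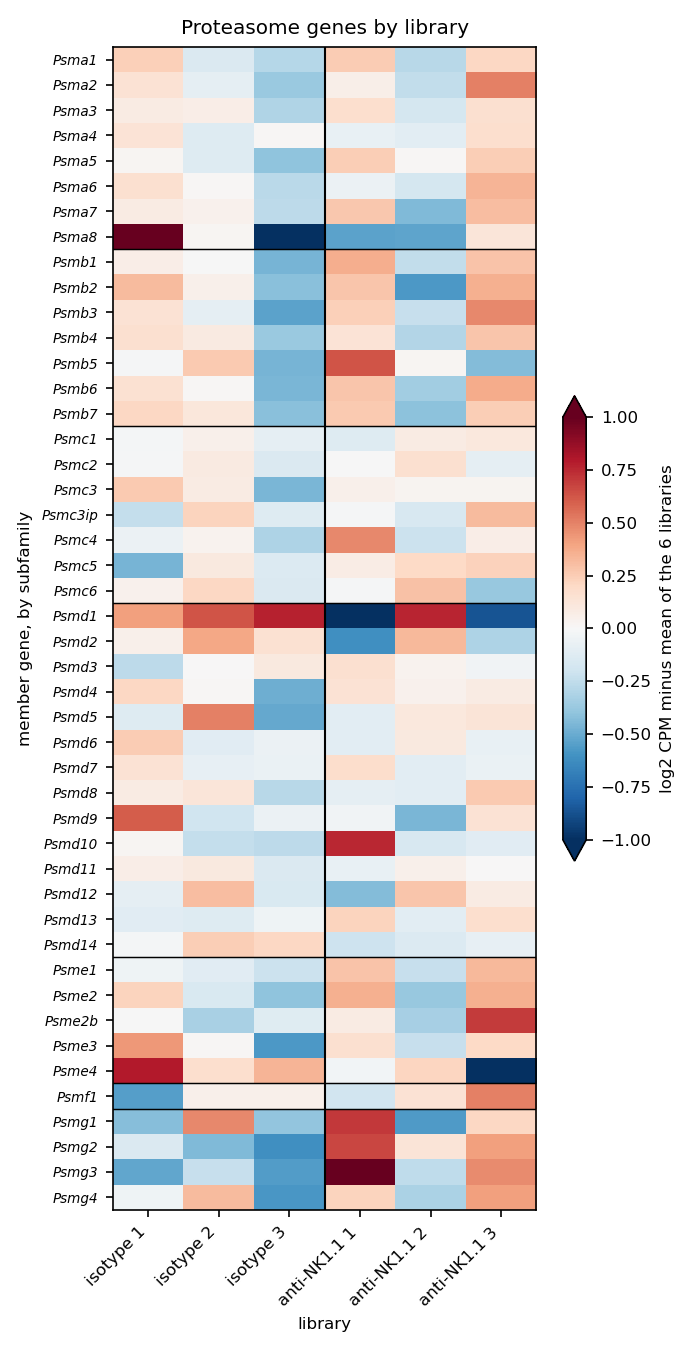
Log2 CPM of the 46 tested proteasome genes (rows, by subfamily) in each library (columns, isotype left of the line), minus the gene's mean over the 6 libraries, with colours saturating at 1 and -1. Isotype 3, with the lowest value of 25 genes, is mostly blue, and anti-NK1.1 1 and 3 are mostly red in the Psma, Psmb and Psmg rows.

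The alpha ring genes Psma1 to Psma7 summed to 1365, 1206 and 1026 CPM in isotype 1 to 3 and to 1365, 1046 and 1544 CPM in anti-NK1.1 1 to 3. Isotype 1 and anti-NK1.1 1 had the same sum to the nearest CPM, and the groups overlapped. Of the 8 Psma genes, 6 were above 0 and 2 below, with a median log2 change of 0.11, which was -0.15 without anti-NK1.1 1 and 3. Psma7 had the highest level per length of the ring, 317 CPM per kilobase of transcript over all libraries. Its levels were 301, 294 and 237 CPM in isotype and 344, 210 and 354 CPM in anti-NK1.1, a log2 change of 0.12 ± 0.25 (SE), with the lowest value in anti-NK1.1 2. The lowest level per length was that of Psma3, 36.4 CPM per kilobase, a span of 8.71-fold for subunits that assemble in equal numbers. By coding length the span was 4.13-fold and the lowest gene was Psma5, since the annotated transcripts of Psma2 and Psma3 are longer than those of the other ring genes, at 2911 and 2846 nucleotides. Psma5 was at 68.4, 61.5 and 51.1 CPM in isotype and 80.2, 68.1 and 80.2 CPM in anti-NK1.1, a log2 change of 0.34 ± 0.24, with anti-NK1.1 2 just under isotype 1. Psma2 was at 276, 234 and 193 CPM against 260, 211 and 355 CPM, a log2 change of 0.23 ± 0.26. With length and GC offsets it was 0.72, where both its long annotated transcript and its GC content of 39.4% enter. Which of these moved the value was not tested. The other 4 alpha ring genes had log2 changes of -0.01 (Psma4) to 0.13 (Psma1), and the groups overlapped for each.

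Psma8, the alpha subunit that replaces Psma7 in the testis, showed 1 library apart. It was at 23.1, 5.52 and 2.43 CPM in isotype 1 to 3 and at 3.76, 3.77 and 5.90 CPM in anti-NK1.1 1 to 3. These rest on 827 counts in isotype 1. The log2 change was -1.21 ± 0.80 with all libraries and 0.19 without isotype 1.

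The beta ring genes Psmb1 to Psmb7 summed to 1379, 1259 and 903 CPM in isotype and to 1499, 975 and 1526 CPM in anti-NK1.1. Anti-NK1.1 2 lay below isotype 1 and 2, and isotype 3 was the lowest library. All 7 had a log2 change above 0, with a median of 0.18. The median was -0.14 with length and GC offsets and -0.26 without anti-NK1.1 1 and 3. Psmb2, a non-catalytic subunit with the highest level per length of the ring at 306 CPM per kilobase, was at 318, 264 and 191 CPM in isotype and 309, 171 and 326 CPM in anti-NK1.1, a log2 change of 0.06 ± 0.30. Psmb3, also non-catalytic, had the smallest unadjusted p of the ring. Its levels were 162, 138 and 102 CPM against 174, 125 and 206 CPM, and its log2 change was 0.33 ± 0.27 (edgeR adjusted p = 0.784). Psmb1 and Psmb4 are structural subunits. Psmb1 was at 281, 267 and 195 CPM against 344, 226 and 326 CPM, and Psmb4 at 195, 186 and 135 CPM against 192, 143 and 212 CPM.

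None of the 3 catalytic subunits passed the test. Psmb6 and Psmb7 were highest in anti-NK1.1 1 and 3, while Psmb5 was high in anti-NK1.1 1 and low in anti-NK1.1 3. Psmb5, which carries the chymotrypsin-like activity, was at 50.9, 61.7 and 37.4 CPM in isotype 1 to 3 and at 79.6, 52.0 and 38.1 CPM in anti-NK1.1 1 to 3. Its highest value was in anti-NK1.1 1, and the log2 change of 0.18 ± 0.33 was -0.15 without that library. Psmb6, the caspase-like subunit, was at 265, 241 and 174 CPM against 290, 187 and 308 CPM, a log2 change of 0.21 ± 0.26. Psmb7, the trypsin-like subunit, was at 108, 101 and 70.0 CPM against 112, 70.5 and 111 CPM, a log2 change of 0.07 ± 0.28. Psmb7 shares up to 253 exonic nucleotides with Nek6 on the opposite strand, and reads of the 2 cannot be told apart. Psmb5 had the lowest level per length of the ring, 59.3 CPM per kilobase, which was 5.17-fold below Psmb2.

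The inducible subunits were compared with the constitutive ones they replace as log2 ratios of CPM per kilobase, which do not depend on library scaling. Psmb8 over Psmb5 was 1.59 ± 0.34 (SD, n = 3) in isotype and 1.71 ± 0.82 (SD, n = 3) in anti-NK1.1. Anti-NK1.1 3 alone reached 2.66, where Psmb8 was 6.30-fold above Psmb5 per length. Psmb9 over Psmb6 was -1.65 ± 0.09 (SD, n = 3) against -1.78 ± 0.16 (SD, n = 3), so the constitutive Psmb6 had the higher level in every library. Psmb10 over Psmb7 was 0.29 ± 0.25 (SD, n = 3) against 0.61 ± 0.15 (SD, n = 3), with isotype 3 at 0.56 inside the anti-NK1.1 range of 0.45 to 0.74. Exact two-sided permutation tests of the 3 differences gave p = 0.9, 0.4 and 0.2, adjusted p = 0.9, 0.6 and 0.6, where 3 against 3 libraries can reach 0.1 at the smallest. The Psmb10 difference of 0.33 was -0.01 after length and GC offsets.

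**Figure D2:**
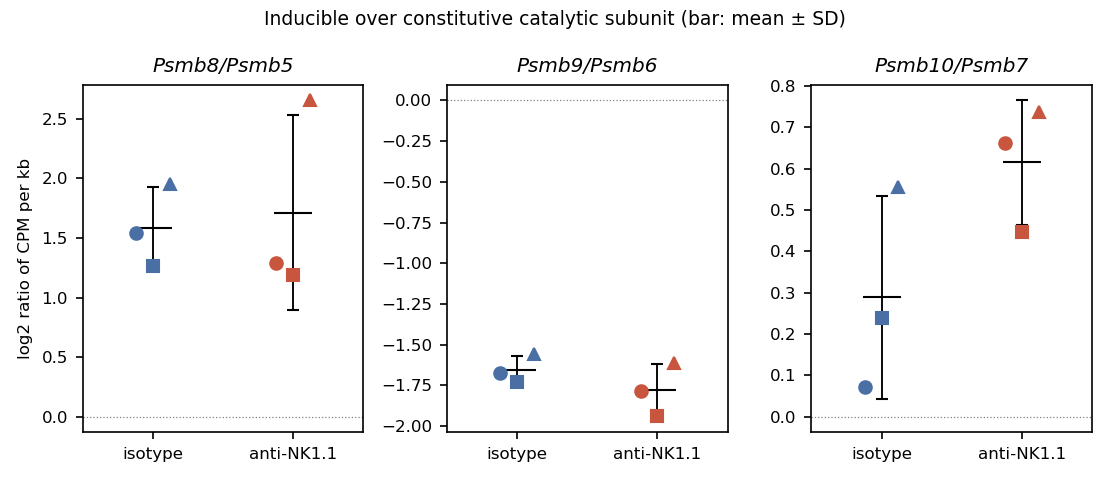
Log2 ratio of CPM per kilobase of each inducible catalytic subunit to the constitutive subunit it replaces, by treatment (circles, squares and triangles are libraries 1, 2 and 3; bars are mean ± SD; the dotted line marks equal levels). Psmb8 and Psmb10 lie above their constitutive partners and Psmb9 below its partner in all 6 libraries, and the treatments overlap in each panel.

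The promoters of these genes can hold the antioxidant response element core TGACNNNGC, bound by the Nfe2l1 and Nfe2l2 proteins that control proteasome transcription, and the CCAAT box bound by NF-Y. Windows from 250 bases before to 50 after the RefSeq start, build GRCm38.p6, were at hand for 39 of the 47 genes and were searched on both strands. TGACNNNGC lay in 6 of 39 windows (15.4%), beside 14.0% of 27025 genes. CCAAT lay in 14 (35.9%), beside 41.1%, and TTCNNNGAA, a STAT site, in 2 (5.13%), beside 9.55%. The shares of the first and second motif were near those of all genes. CCAAT was in 5 of 7 Psma windows, a split looked at after the counts were seen. For TGACNNNGC the stretches below are from the catalytic subunits Psmb5 and Psmb6 and from Psmc6 and Psmd12 of other subfamilies. Those for CCAAT are all from Psma genes and allow no comparison between subfamilies. CCAAT also lay in Psmb, Psmc, Psmd and Psme windows that are not shown. All stretches run 5′ to 3′ on the gene's strand, with the motif in capitals. In Psmc6 and Psmd12 the motif is on the other strand, so its reverse complement is capitalised. A match is no measurement of binding.
Psmb5 (chr14:54618014-54618062, minus strand): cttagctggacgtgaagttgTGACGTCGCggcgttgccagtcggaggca
Psmb6 (chr11:70525328-70525356, plus strand): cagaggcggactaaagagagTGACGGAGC
Psmc6 (chr14:45329577-45329625, plus strand): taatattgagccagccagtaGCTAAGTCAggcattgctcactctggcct
Psmd12 (chr11:107479278-107479309, plus strand): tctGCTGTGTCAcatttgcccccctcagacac
Psma1 (chr7:114276190-114276234, minus strand): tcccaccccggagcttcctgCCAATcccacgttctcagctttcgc
Psma2 (chr13:14613168-14613212, plus strand): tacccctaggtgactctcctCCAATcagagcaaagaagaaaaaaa
Psma7 (chr2:180042636-180042680, minus strand): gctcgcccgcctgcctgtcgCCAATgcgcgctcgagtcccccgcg

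The 19S ATPase genes Psmc1 to Psmc6 summed to 785, 836 and 667 CPM in isotype and 852, 831 and 802 CPM in anti-NK1.1, with isotype 2 inside the anti-NK1.1 range. Of the 7 Psmc genes, 6 were above 0 and 1 below, with a median of 0.05. Psmc5 had the smallest unadjusted p, at 97.5, 144 and 122 CPM against 142, 154 and 158 CPM. Its log2 change was 0.32 ± 0.23 (edgeR adjusted p = 0.765). Psmc3 had the highest level per length, 125 CPM per kilobase, and was at 243, 214 and 148 CPM against 210, 207 and 206 CPM, a log2 change of 0.04 ± 0.24. Its 3 anti-NK1.1 libraries had the smallest spread of any tested member in a treatment, a coefficient of variation of 1.06%. Psmc3 shares up to 97 exonic nucleotides with Slc39a13 on the opposite strand. Psmc1 lay at 79.0 to 87.4 CPM in isotype and 77.2 to 90.8 CPM in anti-NK1.1, and Psmc2 at 136 to 160 CPM and 142 to 168 CPM. Psmc4 lay at 116 to 147 CPM and 123 to 200 CPM. Psmc6, the 1 member of the ring with a log2 change below 0, lay at 66.0 to 84.0 CPM and 56.0 to 89.3 CPM. Psmc3ip was at 6.58 to 9.05 CPM in isotype and 6.92 to 9.64 CPM in anti-NK1.1. It shares up to 385 exonic nucleotides with Mlx on the opposite strand.

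Among the Psmd genes 7 were above 0 and 7 below, with a median of -0.01. The 11 subunits without the 19S chaperones summed to 1194, 1225 and 1105 CPM against 1050, 1193 and 1120 CPM. The summed core over the summed 19S subunits was 1.39, 1.20 and 1.09 in isotype 1 to 3 and 1.51, 0.999 and 1.60 in anti-NK1.1 1 to 3. This ratio was highest in anti-NK1.1 1 and 3 and lowest in anti-NK1.1 2, so the treatments overlapped.

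Psmd1 (chr1:86064387-86139151, plus strand, GRCm38), the large scaffold subunit to which ubiquitin receptors dock, was split within the anti-NK1.1 group. Its levels were 88.5, 103 and 114 CPM in isotype 1 to 3 and 20.5, 113 and 36.6 CPM in anti-NK1.1 1 to 3. Anti-NK1.1 1 and 3 lay below every isotype library, and anti-NK1.1 2 lay between isotype 2 and 3. The log2 change was -0.84 ± 0.52 (edgeR adjusted p = 0.748). Without anti-NK1.1 2 it was -1.84 ± 0.32 (edgeR adjusted p = 0.0476), the 1 call among these genes in that fit, beside 0.861% of 14990 genes. Only anti-NK1.1 2 of the treated libraries lay within the isotype range, so a larger change without it is largely built in. With length and GC offsets the log2 change was -0.71, and without anti-NK1.1 1 and 3 it was 0.16. Psmd1 shares up to 154 exonic nucleotides with Gm21972 on the same strand. Psmd2, the other large scaffold subunit, was at 89.5, 113 and 96.1 CPM against 56.7, 109 and 70.0 CPM, with anti-NK1.1 1 and 3 again lowest.

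Psmd14 (chr2:61711694-61800376, plus strand, GRCm38), the metalloprotease that removes ubiquitin from substrates, had each anti-NK1.1 value below each isotype value. It was at 88.1, 106 and 103 CPM against 77.4, 81.3 and 84.7 CPM. Its log2 change was -0.29 ± 0.21 (edgeR adjusted p = 0.773). It was the 1 member apart in this direction, beside 7.59% of all genes. Counting both directions 2 members did not overlap, beside 15.3% of all genes. Psmd8, the subunit with the highest level per length among the Psmd genes at 116 CPM per kilobase, was at 189, 193 and 147 CPM against 167, 166 and 214 CPM, a log2 change of 0.05 ± 0.22. Of the other subunits, Psmd7, the structural partner of Psmd14, differed least, at 130, 112 and 113 CPM against 133, 110 and 112 CPM. Psmd3, Psmd4, Psmd6, Psmd7, Psmd11, Psmd12 and Psmd13 had log2 changes of -0.06 (Psmd6) to 0.20 (Psmd13) with overlapping groups. Psmd4, the intrinsic ubiquitin receptor, was at 160, 140 and 98.8 CPM against 153, 142 and 146 CPM. Psmd13 was at 76.2, 75.5 and 80.0 CPM against 96.4, 76.7 and 92.5 CPM, and it shares up to 152 exonic nucleotides with Sirt3 on the opposite strand.

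The 19S chaperones Psmd5, Psmd9 and Psmd10 summed to 166, 158 and 121 CPM against 177, 135 and 154 CPM. Psmd5 was at 50.2, 78.0 and 38.6 CPM against 51.1, 59.0 and 59.8 CPM, and Psmd9 at 65.4, 37.5 and 41.2 CPM against 42.1, 31.3 and 47.5 CPM, with the highest value of each in an isotype library. Psmd10 was at 50.6, 42.2 and 41.5 CPM against 83.9, 44.7 and 46.1 CPM, with anti-NK1.1 1 alone above isotype 1.

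None of the activators passed the test. Psme1 and Psme2 encode the alternating subunits of the interferon-inducible PA28 ring. Psme1 was at 210, 200 and 186 CPM against 263, 185 and 271 CPM, a log2 change of 0.27 ± 0.22. Psme2 was at 175, 136 and 114 CPM against 193, 116 and 192 CPM, a log2 change of 0.24 ± 0.27. In both genes anti-NK1.1 2 lay within or below the isotype range. Psme3, the nuclear PA28-gamma activator, was at 108, 80.8 and 53.8 CPM against 89.3, 68.4 and 91.8 CPM, a log2 change of 0.04 ± 0.29. Psme4, which encodes the large activator PA200 and has the longest transcript of these genes at 6491 nucleotides, was at 22.2, 14.3 and 16.2 CPM against 12.5, 14.8 and 4.54 CPM. Its log2 change was -0.73 ± 0.50 (edgeR adjusted p = 0.762), with anti-NK1.1 3 lowest. Psme2b was at 2.42 to 3.01 CPM in isotype and 2.39 to 4.90 CPM in anti-NK1.1, and reads may be shared with Psme2. Psmf1, the inhibitor PI31, was at 26.8, 40.9 and 40.8 CPM against 34.4, 43.5 and 55.8 CPM, a log2 change of 0.30 ± 0.31.

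**Figure D3:**
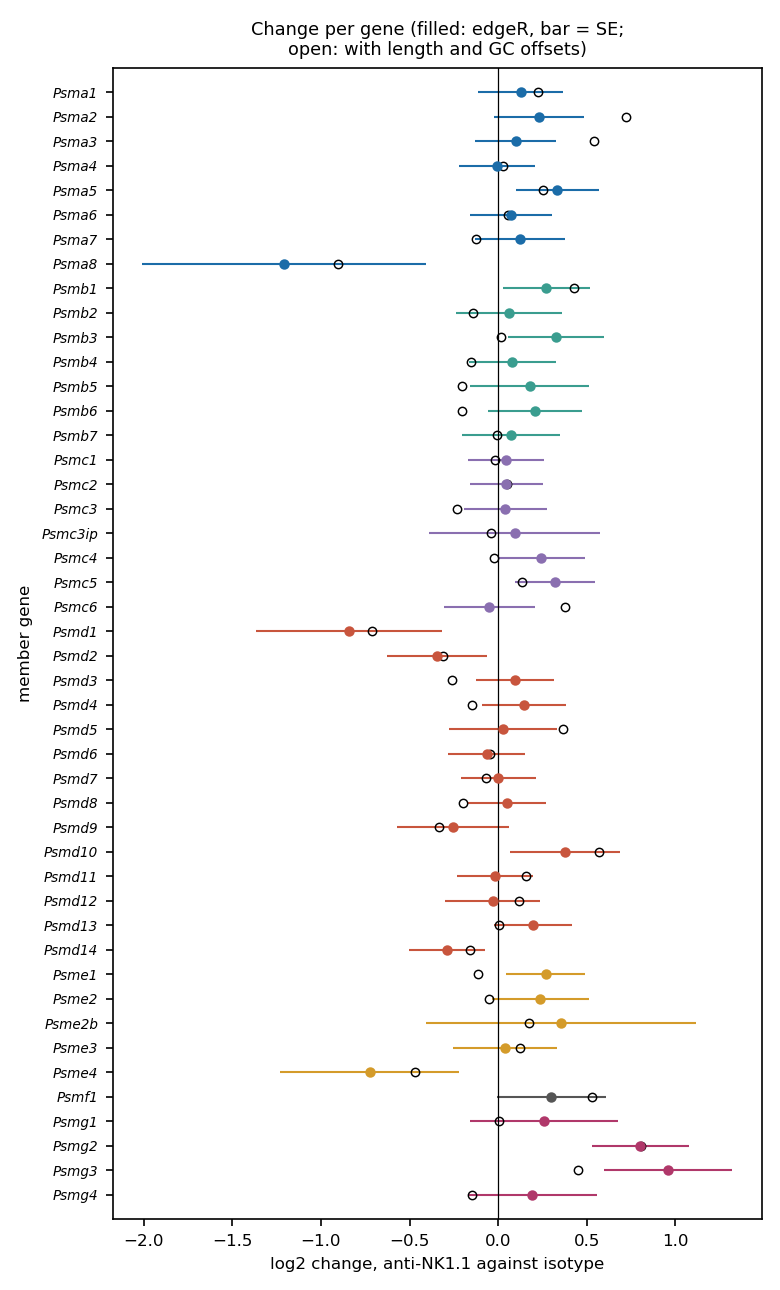
Log2 change of each of the 46 tested genes, anti-NK1.1 against isotype (filled points with SE bars, edgeR, coloured by subfamily), and the same with length and GC offsets (open circles). None passed the test, Psmg2 and Psmg3 lie farthest right, Psma8, Psmd1 and Psme4 farthest left, and the 7 Psmb genes lie right of 0 without offsets but 5 of 7 lie left of it with them.

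The 4 core assembly chaperones had the largest median of the subfamilies, 0.53, and all 4 were above 0. They summed to 109, 131 and 90.2 CPM in isotype 1 to 3 and 219, 117 and 173 CPM in anti-NK1.1 1 to 3, a ratio of means of 1.54. Anti-NK1.1 2 lay inside the isotype range, and the median was -0.03 without anti-NK1.1 1 and 3. Psmg2, which pairs with Psmg1 in the chaperone of the alpha ring, was at 41.8, 34.2 and 30.3 CPM against 73.4, 50.6 and 61.5 CPM. Every anti-NK1.1 library was above every isotype library, which held for this 1 member, beside 7.73% of all genes. The log2 change was 0.80 ± 0.27 (edgeR adjusted p = 0.727), and it was 0.81 with length and GC offsets.

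Psmg1, the partner of Psmg2, was at 19.1, 35.8 and 19.6 CPM in isotype and at 42.0, 17.4 and 29.7 CPM in anti-NK1.1, a log2 change of 0.26 ± 0.42 with overlapping groups. Psmg3 and Psmg4 form the other chaperone pair of the alpha ring. Psmg3 was at 24.7, 30.3 and 24.1 CPM against 75.0, 29.8 and 49.3 CPM, a log2 change of 0.96 ± 0.36 that was 0.45 with length and GC offsets. It shares up to 237 exonic nucleotides with Gm26938 on the same strand. Anti-NK1.1 2 lay between isotype 1 and 2. Psmg4 was at 23.6, 30.3 and 16.2 CPM against 28.4, 19.5 and 32.2 CPM, a log2 change of 0.19 ± 0.36 that was -0.14 with the offsets.

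**Figure D4:**
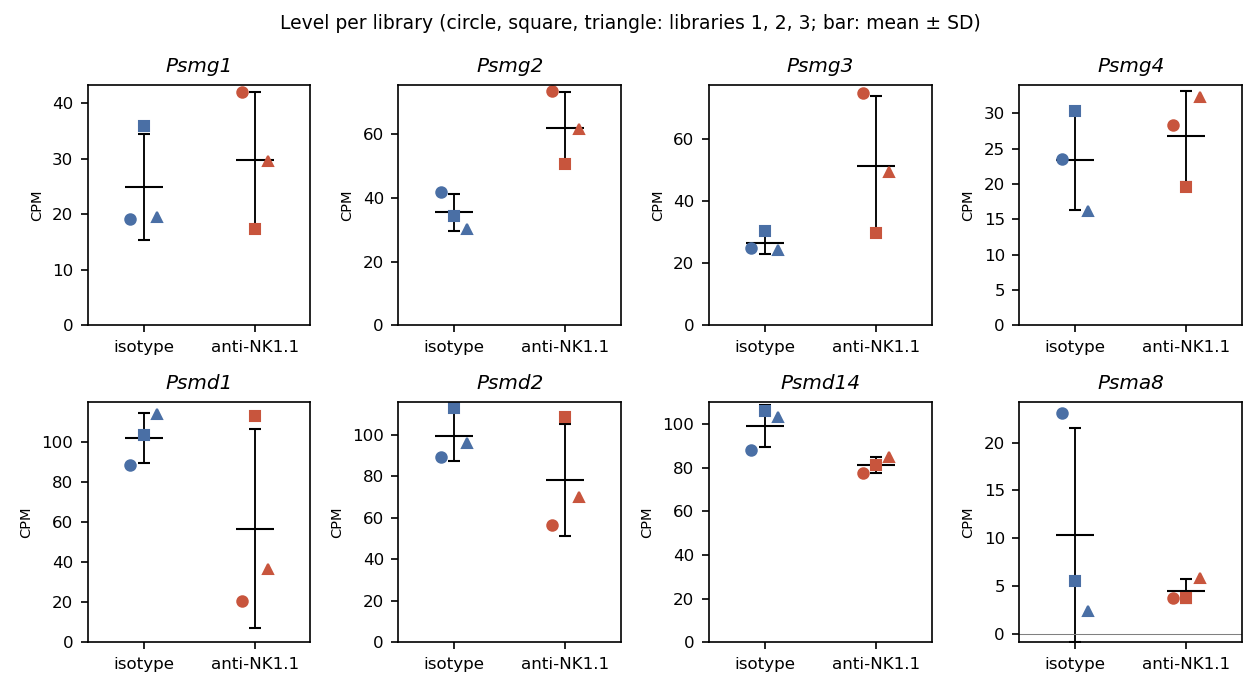
CPM of the 4 Psmg genes, Psmd1, Psmd2, Psmd14 and Psma8 in each library by treatment (circles, squares and triangles are libraries 1, 2 and 3; bars are mean ± SD). The treatments are apart for Psmg2 and Psmd14, Psmd1 is low in anti-NK1.1 1 and 3 only, and 1 isotype library of Psma8 stands at 23.1 CPM.

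Change and transcript length went together across these genes. A relation with GC content, which also enters the offsets, was not tested, so the parts of length and GC were not told apart. The Spearman correlation of the log2 change with length was -0.53 over the 46 genes, beside -0.22 over all tested genes with a length. The genes share the same 6 libraries, so this is a description. The correlation was 0.30 without anti-NK1.1 1 and 3, and 0.02 after the length and GC offsets. The offsets are fitted over all tested genes to remove such trends, so a value near 0 is largely built in. They would also remove a treatment difference that followed length or GC. Of the 36 members of at most 2500 nucleotides, a bound chosen after the lengths were seen, 30 were above 0, and of the 10 longer ones 5 were.

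**Figure D5:**
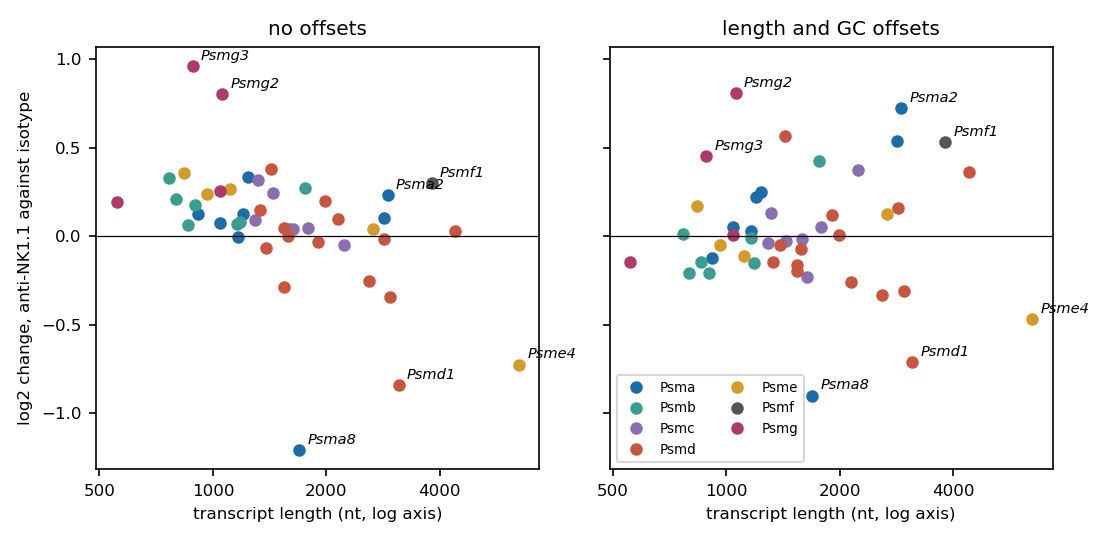
Log2 change, anti-NK1.1 against isotype, of the 46 genes against transcript length in nucleotides (log axis), without offsets (left) and with length and GC offsets (right), coloured by subfamily. The Spearman correlation is -0.53 on the left and 0.02 on the right, where the offsets are fitted to remove such trends. Psmg2 stays near 0.80 in both.

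Genes that act with the proteasome were taken from lists, none with a called gene. Of 10 other 19S and assembly genes 5 were above 0 and 5 below, with a median of -0.11. Usp14, the deubiquitinase of the 19S cap, was at 94.7, 70.0 and 76.3 CPM against 35.9, 81.1 and 48.5 CPM, again lowest in anti-NK1.1 1 and 3. Of 10 genes of proteasome transcription 4 were above 0 and 6 below, with a median of -0.19. Ddi2, the protease that activates the Nfe2l1 protein, was at 3.54, 7.69 and 8.94 CPM against 1.73, 1.93 and 1.00 CPM. The treatments were apart for 2 of these 10 genes, Ddi2 and Ngly1, both lower in anti-NK1.1, beside 7.59% of all genes in this direction. The log2 change of Ddi2 was -2.11 ± 0.74 (edgeR adjusted p = 0.727). Nfe2l1 itself was at 17.4, 40.8 and 29.8 CPM against 47.9, 54.3 and 23.1 CPM, with overlapping groups. Nfe2l2, the related factor of the oxidative stress response, was at 148, 172 and 203 CPM against 86.6, 176 and 69.4 CPM, with anti-NK1.1 1 and 3 lowest.

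Of 10 tested shuttle and segregase genes 4 were above 0 and 6 below, with a median of -0.15. Ubqln1, which carries ubiquitinated proteins to the proteasome, was at 145, 125 and 104 CPM against 68.1, 99.2 and 54.0 CPM. Its treatments were apart, which held for this 1 gene of the list, beside 7.59% of all genes in this direction. The log2 change of Ubqln1 was -0.76 ± 0.28 (edgeR adjusted p = 0.727). All 6 genes of the inducible proteasome and peptide loading list were above 0, with a median of 0.22, and 1 of 6 was with length and GC offsets. Psmb10 was at 128, 135 and 116 CPM against 201, 109 and 208 CPM, with anti-NK1.1 2 below every isotype library. Its log2 change was 0.45 ± 0.28 (edgeR adjusted p = 0.748).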

How the data were processed

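Per the labels' protocols, Trizol-LS RNA went through SMART-seq v4 and Nextera XT and was read from one end over 75 bp. These kits add no molecular identifiers and mark no strand. The submitters' processing notes name build mm10, STAR 2.5.3a, DESeq2 1.1 and Cufflinks 2.0. Which program counted the reads is not given in the sources used here. Although named as normalized, the table deposited by the authors has whole numbers with a different total per library and holds rows for reads in no feature. Its values were taken as read counts, which no source used here states. Another 26 rows carry a date for a symbol and were left out. So were 2 rows of reads given to no gene, 1 for no feature and 1 for ambiguous reads. Of all reads in the table, 53.2% to 57.4% were in no feature.

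Counts were filtered (filterByExpr), scaled by TMM and tested with edgeR 4.0.16 in R 4.3.3 (group only, two-sided, Benjamini-Hochberg over all tested genes). Alternatives used DESeq2 1.42.0 and limma 3.58.1. The SE is the log2 change over the root of the F statistic. Lengths are those of GENCODE vM21 transcripts. The genes and lists were chosen with earlier results of these data known. Genes given with all values were, per subfamily, those with the smallest p and the highest CPM per kilobase, the catalytic subunits, the regulators and Psmd14, and the smallest-p gene of each list. The list of ubiquitin and ubiquitin-activating genes is not reported here. The other members given by library, and Nfe2l1 and Nfe2l2, were added after their values were seen, as was the grouping by role.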

Additional observations from a re-analysis of the deposited data

How the results depend on the processing

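Of the alternatives, DESeq2 called 83 genes over the whole table, leaving out 1 replicate called 0 to 129, and the other settings called 0, which include limma with quantile normalization. Members called were 0 to 1 when 1 replicate was left out, Psmd1 being the 1 (log2 change -1.84 without anti-NK1.1 2), and 0 otherwise. Members above 0 numbered 22 with length and GC offsets, with or without the replicate block, 19 without anti-NK1.1 1 and 3 together, and 22 to 39 when 1 replicate was left out. Same-numbered libraries correlated at 0.0525, 0.0301 and -0.00377 in their deviations from the group means, and the other pairs at -0.0535 to 0.0325. The labels do not say whether the numbers pair the libraries. These correlations cannot settle it, since a weak shared effect could give values as small. The fit with the replicate block alone called 0 genes, with 34 members above 0 and a median of 0.09.

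Without anti-NK1.1 1 and 3 together, a fit in which the lone anti-NK1.1 2 is assumed to vary like the isotype group, medians were -0.10 (members), -0.15 (Psma), -0.26 (Psmb), -0.21 (Psme and Psmf) and -0.034 (Psmg). The Psmb9 to Psmb6 difference was then -0.28, and the Psmb10 to Psmb7 difference was -0.0098 with length and GC offsets. The Psmd median was 0.076 with upper-quartile factors, -0.11 with length and GC offsets, -0.10 with these and the replicate block, and -0.10 to 0.074 when 1 replicate was left out. Members whose groups did not overlap numbered 4 of 46 with upper-quartile factors (8.70%, beside 15.6% of all tested genes) and 5 with the offsets (10.9%, beside 16.0%). They numbered 14 without anti-NK1.1 1 and 3 (30.4%, beside 48.5%), and 2 to 18 when 1 replicate was left out. The 2 were without anti-NK1.1 3, with 4.35% beside 25.8% of all tested genes. The 18 were without anti-NK1.1 2, with 39.1% beside 38.6%. Fewer libraries overlap less by construction.

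The sign differed from that with all libraries for 28 of the 46 members without anti-NK1.1 1 and 3, for 21 with length and GC offsets, and for 3 to 13 when 1 replicate was left out. Of the genes given with full statistics, and a few added, the following changed sign. Without anti-NK1.1 1 and 3 the log2 changes were -0.40 (Psma7), -0.15 (Psma2), -0.58 (Psmb2), -0.088 (Psmb3), -0.27 (Psmb6), -0.39 (Psmb7), 0.16 (Psmd1), 0.13 (Psmd2), -0.083 (Psmd8), -0.10 (Psme1), -0.28 (Psme2), -0.23 (Psme3), -0.51 (Psmg1), -0.25 (Psmg4), -0.21 (Psmb10), 0.020 (Nfe2l2) and 0.021 (Usp14). With length and GC offsets, and with these and the replicate block, they were -0.12 and -0.12 (Psma7), -0.14 and -0.15 (Psmb2), -0.21 and -0.30 (Psmb5), -0.21 and -0.21 (Psmb6), -0.0082 and -0.015 (Psmb7), -0.23 and -0.24 (Psmc3), -0.20 and -0.21 (Psmd8), -0.11 and -0.11 (Psme1), -0.051 and -0.048 (Psme2), -0.14 and -0.14 (Psmg4) and -0.024 and -0.025 (Psmb10). With limma and quantile normalization Psmb2 was at -0.043 and Psmd8 at -0.0038. When 1 replicate was left out the ranges were -0.0051 to 0.33 (Psma7), -1.68 to 0.19 (Psma8), -0.12 to 0.30 (Psmb2), -0.15 to 0.39 (Psmb5), -0.10 to 0.26 (Psmb7), -0.14 to 0.21 (Psmc3), -0.084 to 0.12 (Psmd8), -0.18 to 0.32 (Psme3), -0.079 to 0.62 (Psmg1) and -0.014 to 0.42 (Psmg4). Psma5, Psmc5, Psmd10, Psmd14, Psme4, Psmf1, Psmg2, Psmg3, Ubqln1 and Nfe2l1 kept their sign in all 16 alternatives, and Ddi2 in the 15 that could test it, its mean being under the bound of 5 CPM. The causes were not tested. With 3 libraries a group, the precision is set by the spread between libraries, more than by depth.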
